A study of Homo sapiens with 3 samples.

Results

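The kinases and ubiquitin ligase subunits that set the stability of the clock repressors PER and CRY were examined in the BMAL1 and MAX ChIP-seq of MDA-MB-231 cells, an established human triple-negative breast cancer line. The 8 genes were CSNK1D, CSNK1E, CSNK1A1, CSNK2A1, CSNK2B, GSK3B, BTRC and FBXW11, of 20098 protein-coding genes considered. A peak was assigned to a gene when its summit lay in the gene body or within 20 kb of any of its transcription start sites (TSSs) annotated by GENCODE on hg19. By this rule 1 of the 756 BMAL1 peaks and 14 of the 13650 MAX peaks were at these genes, and no peak was assigned to more than 1 of them. The cells were grown without a stated synchronising or other treatment and fixed in 1% formaldehyde for 10 min. An antibody against BMAL1 or MAX was used to precipitate chromatin, giving 1 library each, and 1 input library served both as control. There were no replicates, so no spread between replicates is available for any value and no test between libraries was made. The depth was 13866783 tags for BMAL1, 11545865 for MAX and 29308882 for the input.

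Timekeeping in mammalian cells depends on how long PER and CRY proteins last. Casein kinase 1 delta and epsilon bind and phosphorylate PER proteins, and beta-TrCP, the F-box protein of an SCF ubiquitin ligase, recognises phosphorylated PER and marks it for the proteasome. Casein kinase 2 and GSK3 beta phosphorylate further clock proteins, among them BMAL1, PER2, CRY2 and the receptor REV-ERB alpha. BMAL1 with CLOCK, and MAX with its partners, bind the same DNA element, the E-box CACGTG, so each of these genes could in principle carry sites for both.

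BMAL1 bound near 1 of the 8 genes, CSNK1D, which encodes casein kinase 1 delta. Its peak was among the strongest of the BMAL1 list, lay upstream of the gene and coincided with a MAX peak. The summit region is shown first because it carries this result. It is the plus strand of hg19 at chr17:80246002-80246152, with E-boxes and the variants CACATG and CATGTG in capitals.

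CSNK1D upstream site: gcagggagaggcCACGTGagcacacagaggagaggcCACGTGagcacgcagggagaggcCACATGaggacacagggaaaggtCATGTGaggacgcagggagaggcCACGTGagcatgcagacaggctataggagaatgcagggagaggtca

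The stretch held 3 E-boxes and a pair of variants, in a sequence that repeated itself. The starts of successive elements were 24, 23, 23 and 23 bp apart. When the 200 bp window centred on the BMAL1 summit was shifted against itself by 15 to 60 bp, the largest share of identical bases, 53.1%, was found at a shift of 23 bp. Of the BMAL1 peaks, 97.5% had a lower value at their own best shift, and the median was 35.0%. The E-boxes lay at 80246014 to 80246019, 80246038 to 80246043 and 80246107 to 80246112, of which the middle one was 6 bp from the BMAL1 summit. Only 15 BMAL1 peaks (1.98%) and 25 MAX peaks (0.183%) held 3 or more E-boxes in the 200 bp at the summit. Reads from a repeat can be hard to place, and the part of read placement in the height of these peaks was not tested.

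**Figure D1:**
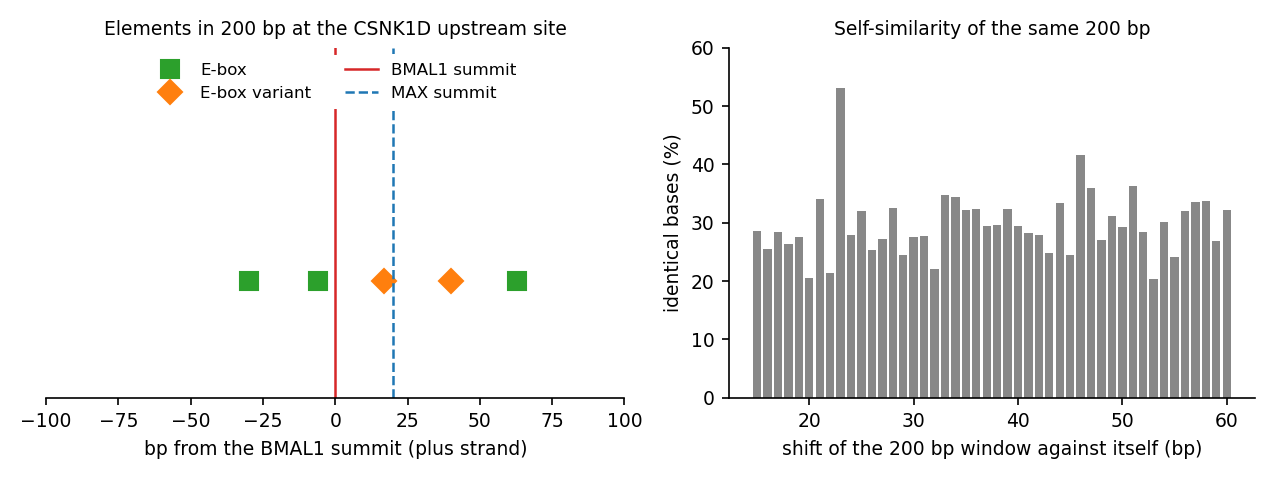
Left, E-boxes and their variants by distance in bp from the BMAL1 summit at the CSNK1D upstream site, with the BMAL1 and MAX summits as lines 20 bp apart. Right, percentage of identical bases when the same 200 bp are shifted against themselves by 15 to 60 bp, which was highest, 53.1%, at 23 bp.

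The BMAL1 peak at CSNK1D spanned 80245642 to 80246477 of chromosome 17, with its summit at 80246046. The pileup there was 199 fragments (95% Poisson interval 172.3 to 228.7, counting error only) and the fold enrichment over the local input background was 70.1. It ranked 9 of 756 by fold enrichment, 6 by -log10 p (285.5) and 10 by pileup. The summit was intergenic, 14470 bp upstream of the canonical CSNK1D TSS, which was also the nearest TSS of a protein-coding transcript. The nearest annotated TSS of any kind, that of the long non-coding RNA LINC01970, was 4644 bp away. In all, 319 BMAL1 peaks (42.2%) had their summit more than 10 kb from a protein-coding TSS, a limit chosen with this distance known, and the CSNK1D peak had the highest fold enrichment of them. No BMAL1 peak was listed within 300 bp of a TSS of any of the 8 genes. Among all protein-coding genes, 4.99% had a BMAL1 peak by the 20 kb rule and 1.64% within 300 bp of a TSS.

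The MAX peak at this site spanned 80245722 to 80246689, sharing 756 bp with the BMAL1 peak, and the summits were 20 bp apart. Its pileup was 38 fragments (interval 26.9 to 52.2), its fold enrichment 13.8 and its -log10 p 30.3, the largest among the MAX peaks of the 8 genes. The fold enrichment exceeded that of 82.7% of all MAX peaks, and of 50.1% of the 637 that shared bases with a BMAL1 peak. By -log10 p it exceeded 94.4% of all MAX peaks and 69.9% of the shared ones, and by pileup 95.8% and 76.1%. The site stood near the top of the BMAL1 list by all 3 measures, whereas the place of its MAX peak among the shared ones depended on the measure. At the 20 BMAL1 peaks of highest fold enrichment, all of which overlapped a MAX peak, the MAX fold enrichment had a median of 21.1 (range 11.8 to 53.9), and 2 of the 20 were lower than CSNK1D. Values of the 2 antibodies are given side by side, since antibody, depth and the number of duplicate tags kept differed between the libraries.

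**Figure D2:**
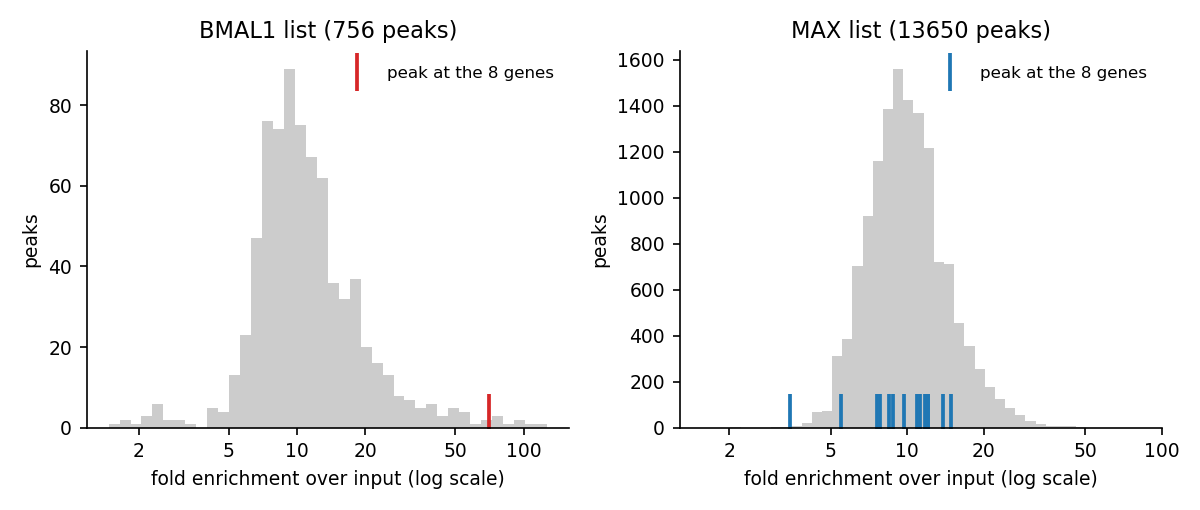
Histograms of fold enrichment over input (log axis) for all peaks of the BMAL1 list (left) and the MAX list (right), with ticks for the peaks at the 8 genes. The BMAL1 tick is at 70.1, in the upper tail of its list. The 14 MAX ticks run from 3.45, near the bottom of theirs, to 14.8, and their median (10.3) is near that of the list (9.73).

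MAX was listed at 5 of the 8 genes: CSNK1D with 7 peaks, CSNK2B with 3, CSNK1E with 2, and GSK3B and BTRC with 1 each. CSNK1A1, CSNK2A1 and FBXW11 had no peak of either factor. GSK3B entered with a -log10 p of 6.66, and at the cutoff of 1e-08 that the methods state, 4 of the 8 genes had a MAX peak. The share of protein-coding genes at that cutoff was not computed, and the shares below are over all listed peaks. A share of 5 in 8 (62.5%) was close to the background, since by the same rule MAX was listed at 54.9% of protein-coding genes. Within 300 bp of a TSS, MAX was listed at 4 of the 8 genes (50%), against 33.8% of protein-coding genes. CSNK1D alone had peaks of both factors (1 of 8), as did 4.83% of protein-coding genes. The gene bodies ranged from 5.1 kb (CSNK2B) to 273.7 kb (GSK3B), with a median of 64.9 kb against 27.3 kb for all protein-coding genes. The 8 genes also had more annotated TSSs, a median of 14.5 against 5, so more sequence and more start sites were searched. Per 100 kb searched there were 1.34 MAX summits at the 8 genes and 1.03 at all protein-coding genes. CSNK1D carried this difference, with 10.2 per 100 kb, and without it the other 7 genes had 0.719 per 100 kb, from 7 MAX peaks. CSNK1D was left out after its count was seen, whereas the rate of all genes keeps genes with many peaks. No depletion at the other 7 genes can be read from these rates.

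**Figure D3:**
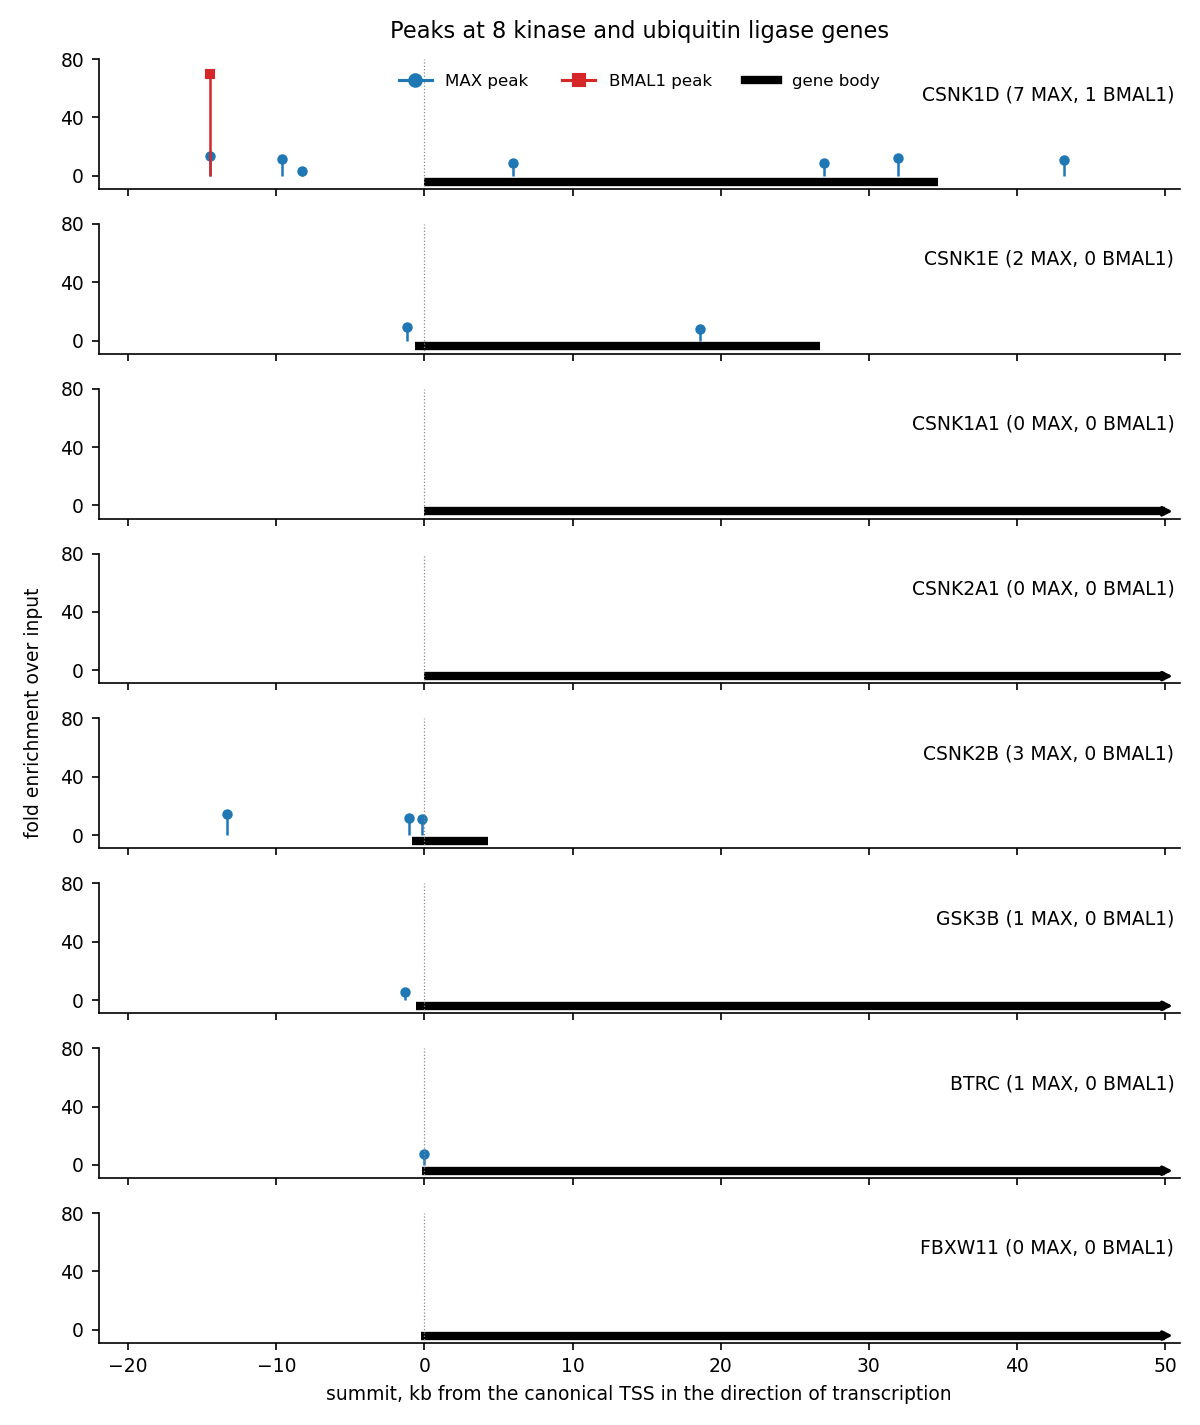
Fold enrichment over input of each MAX and BMAL1 peak at the 8 genes, by distance of the summit in kb from the canonical TSS in the direction of transcription. Black bars are gene bodies, drawn to 50 kb and with an arrow where they continue. The BMAL1 peak stands 14470 bp upstream of CSNK1D, and the panels of CSNK1A1, CSNK2A1 and FBXW11 are empty.

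The 14 MAX peaks were of ordinary strength. Their fold enrichment ranged from 3.45 to 14.8 with a median of 10.3, against 9.73 for the whole list, and 7 of 14 lay above that median. The strongest per gene were 14.8 at CSNK2B, 13.8 at CSNK1D, 9.67 at CSNK1E, 7.62 at BTRC and 5.5 at GSK3B. The Poisson intervals of these peaks overlapped for every pair of genes except CSNK1D (9.75 to 18.9) and GSK3B (2.93 to 9.41). Apart from that pair, the genes cannot be ordered beyond counting error. Of the 14 peaks 1 (7.14%, Wilson 95% interval 1.27% to 31.5%, counting error only) overlapped a BMAL1 peak, against 4.67% of all MAX peaks. For BMAL1 it was 1 of 1, against 84.1% of all BMAL1 peaks. The Wilson interval treats the 14 peaks as independent, although 7 of them were at CSNK1D, and it is not a test against the whole list.

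**Figure D4:**
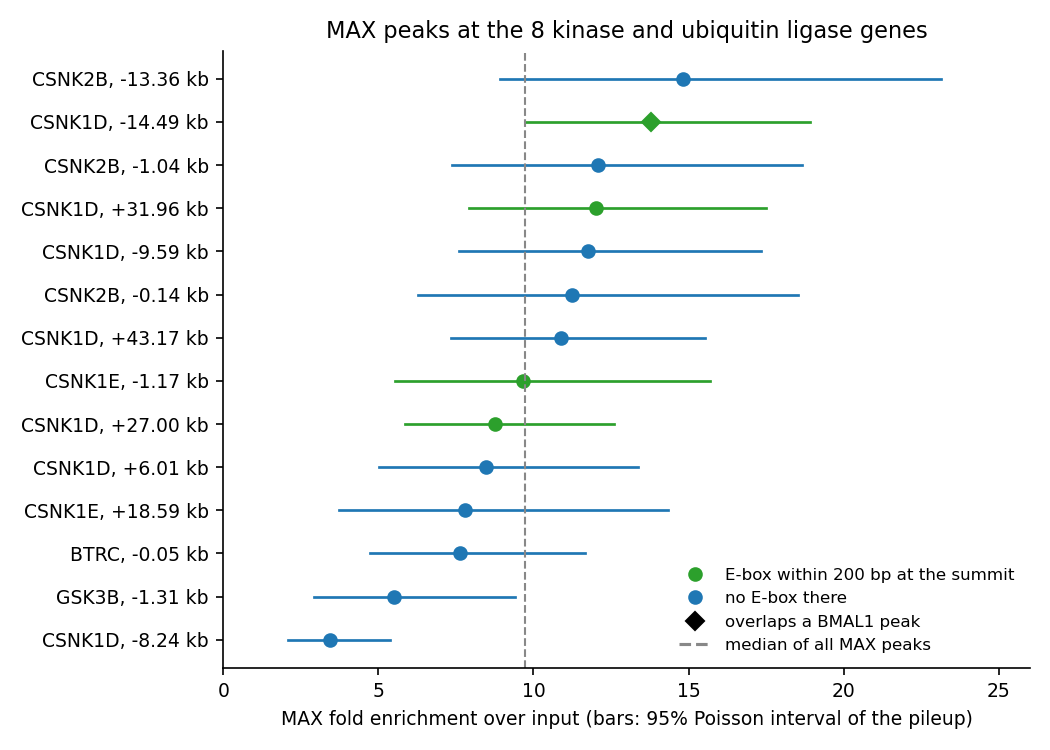
MAX fold enrichment over input of the 14 MAX peaks, named by gene and by distance from the canonical TSS, with 95% Poisson intervals of the pileup. The dashed line is the median of all MAX peaks (9.73), green marks an E-box in the 200 bp at the summit and the diamond the peak that overlaps a BMAL1 peak. All intervals but those at 5.5 and 3.45 (GSK3B and the CSNK1D peak at -8243 bp), and that at 13.8, include the dashed line.

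CSNK1D (ENSG00000141551) lies on the minus strand of chromosome 17 at 80196899 to 80231576. It carried the most MAX peaks, 7, a number reached by 0.493% of protein-coding genes. They were spread over both sides of the gene and none was within 1 kb of the canonical TSS. Upstream of it, summits lay at 14490, 9588 and 8243 bp, with fold enrichments of 13.8, 11.8 and 3.45. Downstream, they lay at 6008, 26997, 31956 and 43167 bp, with fold enrichments of 8.46, 8.76, 12.02 and 10.88. The peak at 26997 bp had its summit 112 bp upstream of an alternative TSS of CSNK1D whose transcript has no defined coding sequence. The 3 peaks farthest downstream were nearer to a protein-coding TSS of SLC16A3, the neighbouring lactate transporter gene, at 9533, 4574 and 1440 bp, and the last of them lay outside CSNK1D in an SLC16A3 exon. The weakest peak (3.45) had the highest input background of the 14, 5.51 fragments, above that of 99.7% of MAX peaks, and a -log10 p of 5.82. All 7 CSNK1D peaks had an input background above the list median of 1.87, and its part in the number of peaks was not tested.

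E-boxes were common around CSNK1D. Its region of 68.6 kb held 39 of them, 5.69 per 10 kb, more than in 99.7% of protein-coding genes (median 1.01). The other genes ranged from 0.486 per 10 kb at CSNK2B to 1.57 at CSNK1E. Of the 103 E-boxes in the 8 regions, 11 lay inside a MAX peak, 10 of them at CSNK1D, and 3 inside a BMAL1 peak. Within 300 bp of the canonical TSS, 1 of the 8 genes held an E-box, CSNK1D, at 80231733 to 80231738. This share was near the background, since 12.6% of canonical promoters of protein-coding genes held one. The E-box at the canonical CSNK1D TSS lay in no listed peak, and the nearest MAX summit was 6165 bp away. Within 300 bp of any annotated TSS, CSNK1D held 5 E-boxes, GSK3B 1 and the other genes none. Of these, the CSNK1D E-box at 80204562 to 80204567 lay in a MAX peak, 15 bp from its summit. E'-boxes (CACGTT or AACGTG) were found in none of the 8 canonical promoters, against 10.1% of all. With 8 genes no scarcity can be read from this.

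Of the 14 MAX peaks 4 (28.6%) held an E-box in the 200 bp at the summit, against 21.2% of all MAX peaks. The BMAL1 peak held one, as did 75.3% of all BMAL1 peaks. Besides the upstream site, the MAX peaks with an E-box at the summit were in CSNK1D and beside CSNK1E. Their elements are printed in capitals with 12 bases to either side (plus strand, hg19) because the flanks differ from element to element. The first is in an intron shared by CSNK1D and SLC16A3 at chr17:80199565-80199594, 41 bp from the summit. The second is in an exon at chr17:80204550-80204579, 15 bp from the summit, and the third in an intron of the readthrough gene TPTEP2-CSNK1E at chr22:38714492-38714521, 97 bp from the summit.

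CSNK1D at +31956 bp: gcaagagggaacCACGTGaggcgggctgga

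CSNK1D at +26997 bp: caggcaggctgcCACGTGgtcttccaccca

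CSNK1E at -1165 bp: gactgagtcacaCACGTGtccaaacgggca

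The sequence at the summits differed between CSNK1D and the other genes, and so did the distance of the summits from a TSS. The MAX summits at CSNK1D were 1440 to 14490 bp from the nearest protein-coding TSS, and those at the other genes 9 to 764 bp. Gene and distance cannot be told apart here, and no comparison with other MAX peaks at like distances was made. The 7 CSNK1D windows were poor in CpG dinucleotides, with an observed to expected ratio of 0.144 to 0.455, below the median of the whole MAX list (0.607). At the other 4 genes the 7 windows ranged from 0.288 to 1.06, so the ranges overlapped, and their median was 0.82. An E-box anywhere in the peak was found in 5 of 7 MAX peaks at CSNK1D and in 1 of 7 at the other genes, against 29.8% of all MAX peaks. This count grows with peak length, which was 324 to 968 bp at CSNK1D and 300 to 683 bp at the other genes. In the 200 bp at the summit it was 3 of 7 and 1 of 7. None of the 14 held an E'-box or CACGCG (on either strand) in the 200 bp at the summit, elements found in 6.04% and 13.2% of all MAX peaks. CATGTG or CACATG was found in 3 of 14 (16.7% of all) and the NF-Y element CCAAT in 4 of 14 (20.5%). The BMAL1 window at CSNK1D held CATGTG or CACATG, as did 24.7% of BMAL1 peaks. The windows searched do not overlap, except that the BMAL1 and MAX windows of the CSNK1D upstream site are nearly the same sequence.

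CSNK1E (ENSG00000213923, chromosome 22, 38686697 to 38714089, minus strand), the close paralogue of CSNK1D, had a pair of MAX peaks and no BMAL1 peak. The stronger (38714324 to 38714702 of chromosome 22, fold enrichment 9.67, pileup 16) had its summit 1165 bp upstream of the canonical TSS and 514 bp upstream of the nearest CSNK1E TSS. The weaker (38694813 to 38695112, fold enrichment 7.79, pileup 10) lay in coding sequence, 11 bp downstream of an internal TSS, and its -log10 p was 6.92. The nearest BMAL1 peak to a CSNK1E TSS was 861730 bp away. CSNK1A1 (ENSG00000113712, chromosome 5, 148872545 to 148931034, minus strand), the gene of casein kinase 1 alpha, had neither, and its nearest peaks outside the region were 167638 bp (MAX) and 547054 bp (BMAL1) from a TSS.

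Of the casein kinase 2 genes, CSNK2B, which encodes the regulatory subunit, had 3 MAX peaks and CSNK2A1, which encodes a catalytic subunit, had none. CSNK2B (ENSG00000204435) lies at 31633004 to 31638120 of chromosome 6 on the plus strand, among closely packed genes, and none of its peaks had a CSNK2B TSS as the nearest one. The peak at its canonical TSS (31633536 to 31634127, fold enrichment 11.2) had its summit 135 bp upstream of that TSS and 84 bp from a TSS of GPANK1, which is transcribed in the opposite direction. A further peak (31632654 to 31632976, fold enrichment 12.1) was 39 bp from another GPANK1 TSS, and the strongest (31620206 to 31620809, fold enrichment 14.8) was 13 bp from a TSS of BAG6. None of the 3 held an E-box. The window at the canonical TSS held 1 NF-Y element, 1 ETS element (CCGGAAG or CTTCCGG, found in 2 of the 14 and 7.79% of all MAX peaks) and 1 GC box (GGGCGG or CCGCCC, found in 3 of the 14 and 34.2% of all MAX peaks). The ETS element and the GC box were 71 and 47 bp from the summit, and are printed in capitals because no E-box was found there (plus strand, chr6:31633637-31633665 and chr6:31633661-31633688).

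CSNK2B promoter, ETS: cctggcttccgCTTCCGGtggcttctcgt

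CSNK2B promoter, GC box: ctcgttgtgccCCGCCCgcaagcgccct

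CSNK2A1 (ENSG00000101266) lies on the minus strand of chromosome 20 at 453142 to 524479. Its nearest MAX peak, a strong one of fold enrichment 22.9, was 126063 bp from a CSNK2A1 TSS and just upstream of a TRIB3 TSS. The nearest BMAL1 peak, 126109 bp away, was at the same gene.

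GSK3B (ENSG00000082701, chromosome 3, 119540168 to 119813841, minus strand), encoding the kinase GSK3 beta, had a single weak MAX peak (119814479 to 119814817 of chromosome 3). Its fold enrichment was 5.5, above 3.27% of MAX peaks, and its -log10 p 6.66. The summit was 1311 bp upstream of the canonical TSS and 128 bp downstream of the TSS of the divergent transcript GSK3B-DT, in an exon of it. It held no E-box in the window, and the gene body of 273.7 kb had no further peak.

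The beta-TrCP paralogues differed in what was listed. BTRC (ENSG00000166167, chromosome 10, 103113790 to 103317078, plus strand) had a MAX peak across its canonical TSS (103113488 to 103114170 of chromosome 10, pileup 21, interval 13.0 to 32.1), with its summit 49 bp upstream of it. Its fold enrichment was 7.62, above 20.1% of MAX peaks, and the input background there was 2.76 fragments. The window held no E-box and a pair of GC boxes, of which the nearer to the summit, 26 bp away, is printed at chr10:103113885-103113912 (plus strand, element in capitals).

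BTRC promoter: tggcaccaaagGGGCGGccccggcggag

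FBXW11 (ENSG00000072803, chromosome 5, 171288553 to 171433877, minus strand), the other beta-TrCP gene, had no peak. Its nearest MAX peak was 104551 bp from a TSS and its nearest BMAL1 peak 479985 bp. Its canonical promoter and those of CSNK1A1 and CSNK2A1 had CpG ratios of 0.868, 0.922 and 0.662, on either side of the median of all canonical promoters (0.767). None held an E-box, nor did the canonical promoters of CSNK1E, CSNK2B, GSK3B and BTRC, which had MAX peaks. A peak below the calling threshold would not be listed, so the 3 genes are without a listed peak at this depth, not without binding.

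No peak lay close to the 20 kb limit. The peaks farthest from their gene's nearest TSS were 14580, 14490 and 14470 bp away, all at CSNK1D. The nearest left out was a MAX peak 23875 bp from a CSNK1D TSS (fold enrichment 12.4), and 4 more, 27160 to 32459 bp from a CSNK1D TSS, had fold enrichments of 8.08 to 18.1. The only other MAX peak left out within 50 kb was 45058 bp from a CSNK2B TSS (15.6). For the 7 genes without a BMAL1 peak, the nearest one was 126109 to 2698806 bp from a TSS.

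A list of 30 other kinases, phosphatases, ubiquitin ligase parts and deubiquitinases of clock proteins was examined by the same rule. The list counts FBXL21P, which is annotated as a transcribed unitary pseudogene and not as a protein-coding gene. MAX was listed at 17 (56.7%) and within 300 bp of a TSS at 11 (36.7%), close to the 54.9% and 33.8% of protein-coding genes. BMAL1 was listed at 2 (6.67%, against 4.99%), PPP1CA and PPP2CA, the genes of phosphatase catalytic subunits. The PPP2CA site was like that of CSNK1D in its distance upstream, but it was weaker and lay in an intron of another annotated gene. It lay 16232 bp upstream of the TSS with a BMAL1 fold enrichment of 14.8 and a MAX fold enrichment of 8.12, and the summits were 53 bp apart. The site assigned to PPP1CA (BMAL1 14.2, MAX 20.3) was 9702 bp from a PPP1CA TSS and 83 bp from a TSS of the checkpoint gene RAD9A.

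**Figure D5:**
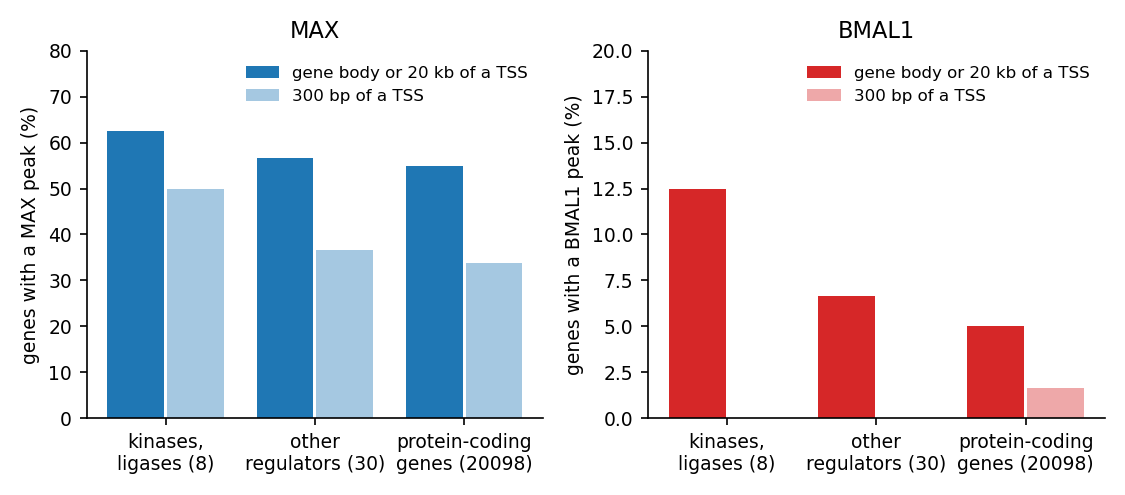
Percentage of genes with a MAX peak (left) or a BMAL1 peak (right) among the 8 kinases and ligases, 30 other regulators of clock proteins and all protein-coding genes, by the 20 kb rule (dark) and within 300 bp of a TSS (light). For MAX the dark bars are 62.5%, 56.7% and 54.9%, and for BMAL1 12.5% (1 gene), 6.67% and 4.99%.

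The strongest MAX promoter peak of the 30 was at USP2, a deubiquitinase gene, where the fold enrichment was 32.7 and exceeded that of 99.7% of the list. CDK5 (16.4) and MAPK8 (14.45), both kinase genes, followed, and none of the 3 had a BMAL1 peak. The CDK5 peak had its summit 265 bp from the CDK5 TSS, in an intron of SLC4A2 and 50 bp from a protein-coding TSS of that gene. The genes in neither list numbered 13, namely CSNK2A2, CSNK1G1, CSNK1G2, CSNK1G3, PRKAA2, PPP1CB, PPP1CC, SKP1, CUL1, RBX1, FBXL21P, UBE3A and USP7. They include the SCF core subunits SKP1, CUL1 and RBX1, with which beta-TrCP forms its ligase, and CSNK2A2, the other catalytic subunit of casein kinase 2. MAX was listed at 56.7% of the 30 and at 54.9% of protein-coding genes, so the number without a peak was near the background. These genes too are without a listed peak at this depth, not without binding.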

How the data were processed

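BMAL1 and MAX were measured in 1 ChIP library each, with 1 input library. Per the labels and methods, the authors aligned reads on hg19 with BWA 0.6.2 and called peaks with MACS2 2.0.9 for each antibody. The deposited pileup is a signal, the height of fragments extended to 300 bp at the summit, not scaled by depth. The deposited fold enrichment is its ratio to the larger of the genome-wide and local input background. The deposited -log10 p-values and -log10 q-values are the caller's. The headers give a cutoff of 1e-05, the methods 1e-08, and all listed peaks were used. Up to 2 tags per position were kept for BMAL1 and 1 for MAX.

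All peak positions lay within the chromosomes of the GRCh37 sequence used here, the assembly that hg19 names. Peaks were assigned with all transcripts of GENCODE release 44 mapped to GRCh37, and the canonical TSS is that of the transcript so tagged. Protein-coding genes of chromosome Y were left out. Overlap meant at least 1 bp shared, and a promoter peak at least 1 bp within 300 bp of a TSS. Motifs were counted on both strands in 200 bp at the summit. The input background was computed as pileup over fold enrichment, and Poisson intervals of the pileup treat it as exact. Assignment and motif counting were tested on simulated data.

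The 8 genes and all lists were chosen with earlier results of these data known. All 8 were named with all their peaks, and of the 30 others those with a BMAL1 peak, the 3 strongest MAX promoter peaks and those in neither list. Shares of genes and peaks are descriptions without a test, since peaks and genes are not replicates. Python 3.11.15 was used with pysam 0.24.0 for sequence, pandas 2.3.3 and numpy 2.4.6 for tables, scipy 1.17.1 for intervals and matplotlib 3.10.9 for plots.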

Additional observations from a re-analysis of the deposited data

How the results depend on the processing

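Counts and median percentiles at the 8 genes were recomputed, giving 58 alternative values. In 47 of them a count stayed within 1.5 times the reported one, or a percentile within the Wilson interval of the reported one. This number is no measure of robustness, since 29 of the 58 concerned the 1 BMAL1 peak or the 0 BMAL1 promoter peaks. Several of these could hardly change, such as stricter p cutoffs for a peak with a -log10 p of 285.5. The Wilson interval took the whole list as its number, so it is not the spread of a median over 14 peaks. The BMAL1 peak of CSNK1D rests on the distance rule: with 5 kb in place of 20 kb, or with the gene body alone, 0 BMAL1 peaks and 0 genes remained. The 14 MAX peaks became 9 within 5 kb, 6 in gene bodies alone and 8 when the nearest protein-coding TSS had to belong to 1 of the 8 genes. At p 1e-12 there were 8 MAX peaks at 3 genes. At p 1e-08, the cutoff of the methods, there were 11 at 4 genes, and GSK3B was lost. Within 50 kb there were 20 MAX peaks at 5 genes. Genes with a MAX promoter peak fell from 4 to 2 with the canonical TSS alone, an alternative chosen after the data were seen. The shares of protein-coding genes were not recomputed under these alternatives, so the counts have no background at their own setting. The median percentile of the MAX peaks in their list was 55.7% by fold enrichment and 59.6% by -log10 p. The overlap of the BMAL1 and MAX peaks at CSNK1D held under the 4 alternatives tried for it. No paired analysis was possible because each antibody had 1 library, and no replicate could be left out for the same reason. The lowest pileup among the MAX peaks was 10 fragments, which bounds the precision of its fold enrichment.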
